A study of Macaca mulatta with 12 samples.

Results

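Transcripts of the respiratory complexes II and III were followed layer by layer in the lateral geniculate nucleus, where the thalamus relays signals from the eyes to visual cortex, in rhesus macaques with monocular deprivation. The genes asked for were SDHA, SDHB, SDHC and SDHD of complex II and UQCRC1, UQCRC2, UQCRFS1, UQCRH, UQCRB and CYC1 of complex III. A probe set, a group of short probes on the array that together read 1 transcript, counted as a member when it was no control and its annotated symbol was exactly one of these 10. This gave 14 probe sets of 7 genes, out of 11963 gene symbols that had a probe set of their own. SDHC had 4, UQCRB 3, SDHD and UQCRC2 2 each, and SDHA, UQCRC1 and CYC1 1 each. UQCRH was named only on a probe set shared with another gene and was left out, and SDHB and UQCRFS1 were not analysed here.

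Each of the 6 layers was sampled once in the ipsilateral and once in the contralateral geniculate, as total RNA on 1 array, which gave 12 arrays. Side is given in the titles and is taken here as relative to the deprived eye. The labels call layers 2, 3 and 5 deprived on the ipsilateral side and layers 1, 4 and 6 deprived on the contralateral side, so that 6 samples were deprived and 6 were not. Layers 1 and 2 are magnocellular (4 samples) and layers 3 to 6 parvocellular (8 samples), by textbook anatomy. The labels give no age, sex, duration or method of deprivation, number of animals or which samples shared an animal, and no undeprived animal was among the samples. The spread given here thus runs over layers and sides and can include technical error, and if arrays shared animals, the p-values understate the error between animals.

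Complex II, succinate dehydrogenase, oxidises succinate to fumarate in the citric acid cycle and passes the electrons to ubiquinone in the inner mitochondrial membrane. Complex III, the cytochrome bc1 complex, takes electrons from reduced ubiquinone, hands them to cytochrome c and moves protons across the membrane as it does so. All subunits of complex II are encoded in the nucleus, while complex III also holds cytochrome b, encoded by mitochondrial DNA. Firing neurons spend most of their ATP on restoring ion gradients, and the activity of respiratory enzymes in geniculate layers is known to depend on input from the eye.

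The arrays had been scaled to equal trimmed means, but their median intensity ran from 411.5 to 666.5, with 459.5 to 666.5 ipsilaterally and 411.5 to 529.1 contralaterally. The ratio of 3' to 5' GAPDH control probes, high in degraded RNA, was 9.38 in the deprived layer 2 and 11 in the deprived layer 5, both ipsilateral, and 2.21 to 5.65 on the other arrays. The deprived layer 2 also had the lowest mean correlation with the other arrays (0.890 against 0.921 to 0.948). The neuronal genes SNAP25 (55755 to 69215) and SLC17A6, the glutamate transporter of relay cells (24556 to 42638), were bright on all 12 arrays. The myelin gene MBP (30138 to 73296) was bright too, so the samples held glia beside neurons.

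Of the 14 member probe sets, 13 passed the filter on low values and were tested. The second SDHD probe set (215652_at) lay below the filter, with intensities from 32.9 to 363.1, and 7 of its 12 values were under the floor of 110.8. Intensities are compared only between arrays within a probe set, since human probes bind macaque RNA unequally. Changes are on the log2 scale, ± standard error, and come from 1 limma fit over 11105 probe sets with deprivation, cell class and hemisphere as terms, and an adjusted p is its Benjamini-Hochberg value over all 11105. A member was called when its adjusted p was under 0.05.

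No member was called for any comparison in this fit. With deprivation, 12 of the 13 probe sets had a negative change, with a median of -0.26 (range -0.59 to 0.09) where the median of all tested probe sets was 0.03 and 46.3% were below 0. Of all tested probe sets 0.0630% were called for deprivation. The deprived and non-deprived groups overlapped for each of the 13 members, where 0.351% of all tested probe sets had every deprived array lower and 0.333% every one higher. At an unadjusted p under 0.05, 4 members were lower and 0 higher, where 6.07% and 5.93% of all tested probe sets were. These 4 were UQCRC1, SDHA, CYC1 and 1 of the 3 UQCRB probe sets. Probe sets of the same gene are counted separately here and are not independent. With 1 probe set per gene, 6 of 7 genes had a negative change, against 46.9% of all genes tested. By complex, 5 of 6 probe sets of complex II were negative (median -0.23) and 7 of 7 of complex III (median -0.31). By gene, 2 of 3 of complex II and 4 of 4 of complex III were negative. The difference between the complexes was not tested.

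**Figure D1:**
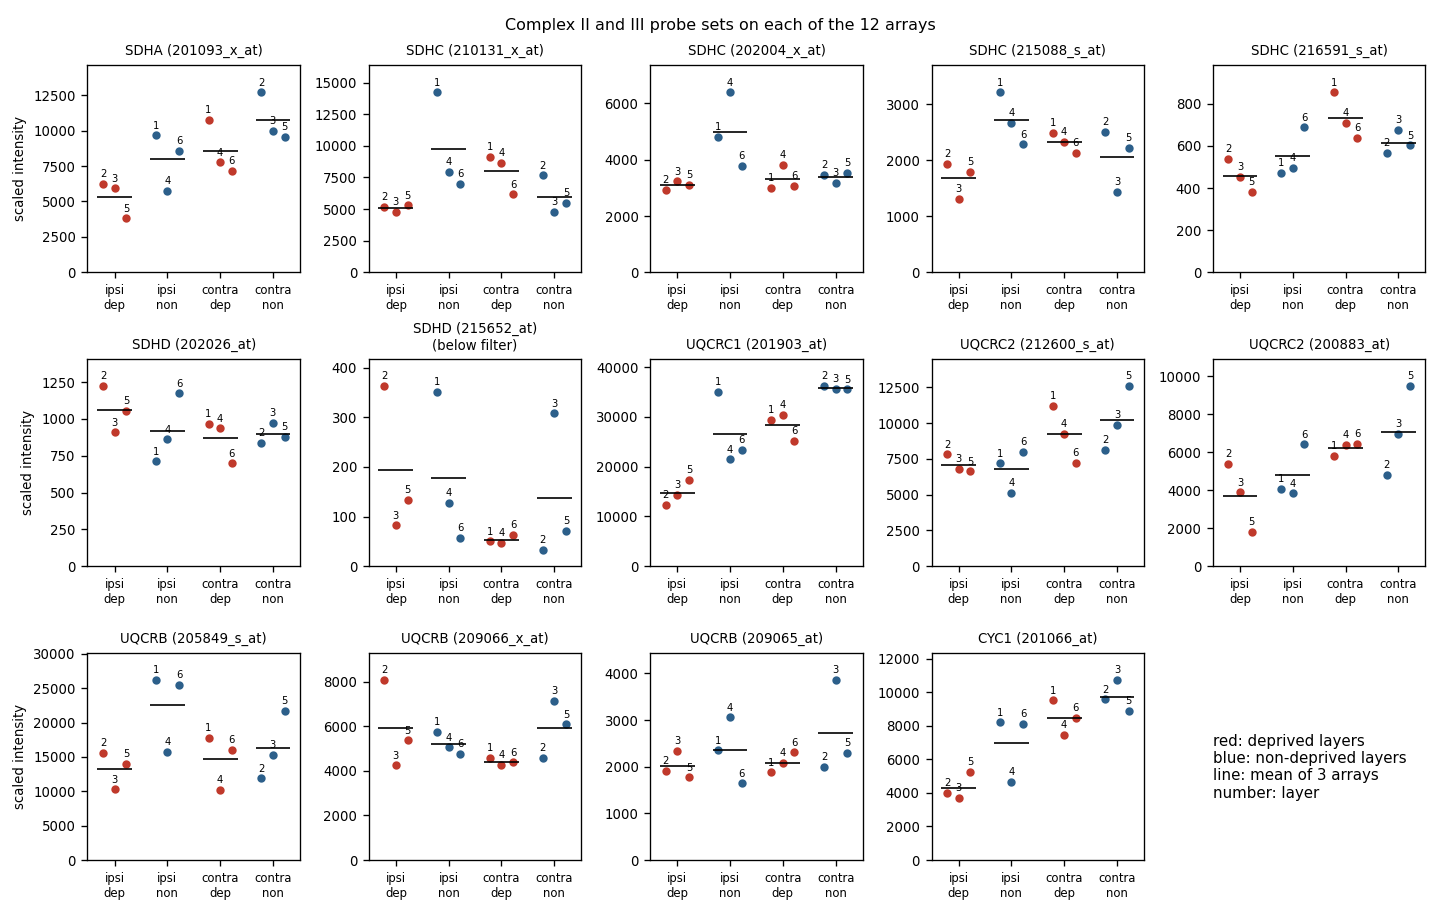
Scaled intensity (linear axis from 0) of the 14 member probe sets on each array, grouped by hemisphere (ipsi, contra) and deprivation (dep, non). Points are single arrays with the layer number, and lines are means of 3 arrays. For UQCRC1 the 3 ipsilateral deprived arrays lie between 12368 and 17347, below the other 9.

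UQCRC1, one of the large core proteins of complex III that face the matrix, had the strongest change with deprivation among the members. In the ipsilateral deprived layers 2, 3 and 5 it read 12368, 14308 and 17347. The same layers on the contralateral side, not deprived, read 36186, 35613 and 35520. In layers 1, 4 and 6 the contralateral deprived samples read 29434, 30415 and 25146, and the ipsilateral non-deprived samples 35079, 21475 and 23314. The 3 ipsilateral deprived arrays were the lowest of the 12, and the highest 3 of the contralateral arrays were the non-deprived ones. Of all tested probe sets 1.33% had these 3 arrays below the other 9, and UQCRC1 was the 1 member among 13 that did. This split is not a comparison of the design and is given as a description only. The median intensities of these 3 arrays, 666.5, 598.7 and 645.5, were among the highest of the 12. Its mean was 21503 ± 7850 in deprived and 31198 ± 6853 in non-deprived layers (SD, n = 6 each), a change of -0.59 ± 0.15 (limma adjusted p = 0.147). The deprived sample was the lower one in 4 of 6 layers.

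CYC1, cytochrome c1, which carries the haem that passes electrons on to cytochrome c, was ordered in much the same way. The ipsilateral deprived layers 2, 3 and 5 read 3986, 3695 and 5273, against 9574, 10739 and 8878 in those layers on the contralateral, non-deprived side. The contralateral deprived layers 1, 4 and 6 read 9526, 7467 and 8458, and their ipsilateral non-deprived counterparts 8203, 4664 and 8114. The deprived sample was lower in each of layers 2, 3 and 5 and higher in each of layers 1, 4 and 6. The change with deprivation was -0.43 ± 0.18 (adjusted p = 0.340).

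SDHA, the flavoprotein of complex II that binds succinate and FAD, read 6253, 5918 and 3816 in the ipsilateral deprived layers 2, 3 and 5. The contralateral non-deprived samples of these layers read 12704, 9985 and 9538. In layers 1, 4 and 6 the deprived samples read 10738, 7762 and 7178 and the non-deprived ones 9663, 5770 and 8566, so that in layers 1 and 4 the deprived sample was the higher one. The change was -0.46 ± 0.15 (adjusted p = 0.243), from 9371 ± 2246 to 6944 ± 2299 (SD, n = 6 each). Near-identical pseudogenes of SDHA, SDHC, SDHD and UQCRB are known in the human genome, and suffixes _x_at and _s_at mark probe sets with probes shared between transcripts, so part of these signals may come from other transcripts.

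UQCRC2, the partner core protein of UQCRC1, had 2 probe sets that were less uniform. With 200883_at the ipsilateral deprived layers 2, 3 and 5 read 5387, 3887 and 1796, against 4811, 6958 and 9490 on the contralateral side, and the change with deprivation was -0.31 ± 0.25 (adjusted p = 0.676). Layer 5 alone had a difference of -2.40, the widest of any member in any layer, and layer 2 had 0.16. With 212600_s_at the change was -0.03 ± 0.17, and the groups ran from 6637 to 11222 with deprivation and from 5113 to 12596 without.

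UQCRB, a small subunit that binds ubiquinone near the cytochrome b core, read less in the deprived than in the non-deprived sample of 5 out of 6 layers on each of its 3 probe sets. On 205849_s_at deprived layers ran from 10182 through a median of 14791 to 17747 and non-deprived layers from 11895 through 18712 to 26210, and the groups overlapped. Its change was -0.45 ± 0.20 (adjusted p = 0.401), and layer 2 was the exception at 0.39. On 209066_x_at the change was -0.13 ± 0.18, and here the deprived layer 2 was the highest array of all at 8090. On 209065_at it was -0.26 ± 0.19, with layer 6 the exception at 0.49.

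SDHC, one of the membrane anchors of complex II that hold its haem and ubiquinone site, had 4 probe sets. On 215088_s_at the deprived sample was lower in 6 of 6 layers, by 0.10 to 0.37 on the log2 scale, and the change was -0.25 ± 0.20 (adjusted p = 0.671). On 202004_x_at it was lower in 5 of 6, with a change of -0.35 ± 0.17 (adjusted p = 0.438). Deprived layers ran from 2937 to 3824 there, while the non-deprived layers 1 and 4, both ipsilateral, read 4801 and 6392. On 210131_x_at the change was -0.22 ± 0.22 and on the dimmest, 216591_s_at, -0.01 ± 0.23. Of the 13 tested probe sets 5 were lower in at least 5 of 6 layers, all of them of SDHC or UQCRB, where 10.9% of all tested probe sets were. SDHD, the other membrane anchor, was the 1 member with a positive change (0.09 ± 0.19, adjusted p = 0.898). It ran from 698.8 to 1223 in deprived and from 711.7 to 1173 in non-deprived layers, and its sign turned after median centring (-0.05).

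**Figure D2:**
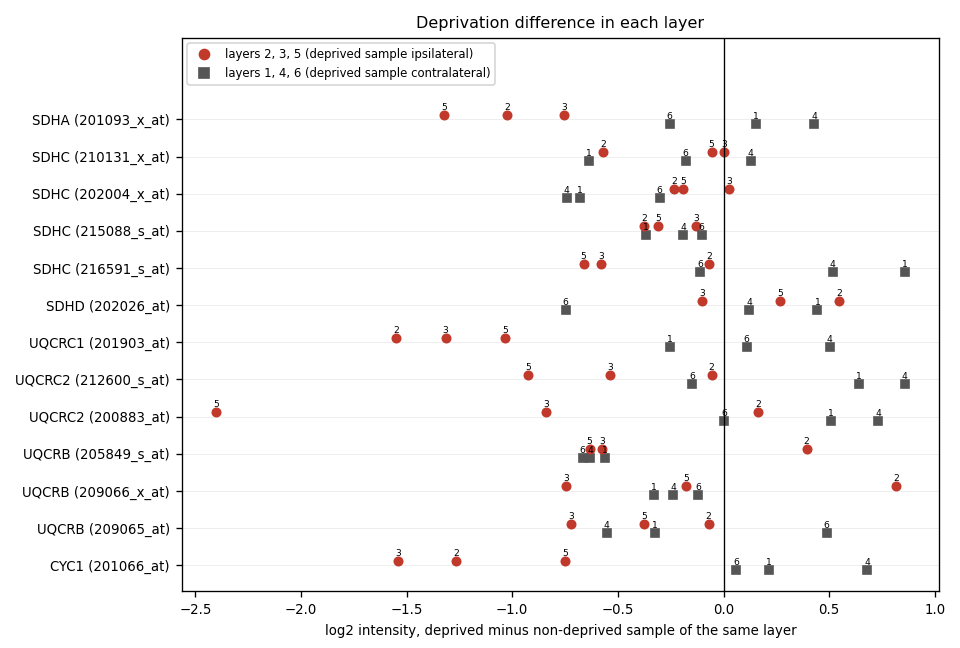
Log2 intensity of the deprived minus the non-deprived sample of each layer for the 13 tested probe sets. Red circles are layers 2, 3 and 5 (ipsilateral sample deprived) and grey squares layers 1, 4 and 6 (contralateral sample deprived). For CYC1 and UQCRC1 the red circles lie between -0.75 and -1.55 and the grey squares between -0.25 and 0.68.

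Each layer difference also holds the difference between hemispheres, because the deprived and the non-deprived sample of a layer came from opposite sides. Over the 13 members the median layer difference was -0.58 in layer 3 and -0.63 in layer 5, where all tested probe sets had 0.09 and 0.17. It was -0.25 in layer 1 (all tested -0.17), -0.07 in layer 2 (0.08), 0.13 in layer 4 (-0.10) and -0.12 in layer 6 (0.04). The deprived sample was the lower one for 12 of 13 members in layer 5 and 11 in layer 3, for 9 in layers 2 and 6, for 7 in layer 1 and for 5 in layer 4.

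The comparison of hemispheres gave the smallest adjusted p-values. UQCRC1 ran from 12368 through a median of 19411 to 35079 ipsilaterally and from 25146 through 32968 to 36186 contralaterally, a change of -0.71 ± 0.15 (limma adjusted p = 0.0774). CYC1 ran from 3695 through 4968 to 8203 and from 7467 through 9202 to 10739, a change of -0.75 ± 0.18 (adjusted p = 0.0935). SDHA had -0.57 ± 0.15 (adjusted p = 0.108), from 9651 ± 2016 contralaterally to 6664 ± 2109 ipsilaterally (SD, n = 6 each). Both UQCRC2 probe sets were lower on average ipsilaterally, with -0.72 ± 0.25 and -0.48 ± 0.17 (adjusted p = 0.141 and 0.148). None was called, where 0.108% of all tested probe sets were. The 2 sides overlapped for every one of the 13 members, where 0.423% of all tested probe sets had each ipsilateral array lower and 0.864% each one higher. Of the members 8 of 13 had a negative change, against 42.1% of all tested probe sets. At an unadjusted p under 0.05, 5 member probe sets of 4 genes were lower and 0 higher, against 7.13% and 13.0% of all tested probe sets. With 1 probe set per gene, 4 of 7 genes had a negative change, and 4 were lower at that p. Of all genes tested these shares were 42.2% and 6.82%.

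Hemisphere changes of SDHC, SDHD and UQCRB ran from -0.43 to 0.22. Those of the 3 UQCRB probe sets were 0.17 ± 0.20, 0.10 ± 0.18 and -0.13 ± 0.19, and that of SDHD was 0.15 ± 0.19. SDHC had 0.22 ± 0.17 on 202004_x_at, 0.01 ± 0.22 on 210131_x_at, -0.03 ± 0.20 on 215088_s_at and -0.43 ± 0.23 on 216591_s_at (adjusted p from 0.304 to 0.986 for all 8). The sign of the positive values among these differed between scalings of the arrays. After median centring all 13 members were lower ipsilaterally, and the median of all tested probe sets moved from 0.07 to -0.25. After quantile normalization 9 of 13 members were lower, against 8 as deposited, and the median of all tested probe sets was -0.01. The members' median was -0.13 as deposited and -0.45 after centring, which is -0.20 relative to all tested probe sets in both. This difference depended on the filter. Among the upper 25% of probe sets by mean intensity, 11 members had a median of -0.13 and all tested probe sets -0.045. The difference there was -0.08. Without the non-deprived layer 6, UQCRC1 (adjusted p = 0.0269), CYC1 (0.0205) and SDHA (0.0257) were called as lower ipsilaterally, in a fit that called 851 of 11105 probe sets. Without the non-deprived layer 1, UQCRC1 was called too (adjusted p = 0.0280). The ratio of 3' to 5' ACTB control probes ran from 20.3 to 62.9 ipsilaterally and from 17.0 to 38.2 contralaterally. Hemisphere changes with the ACTB ratio as a covariate are not given here. The GAPDH ratio ran from 2.87 to 11 ipsilaterally and from 2.21 to 4.09 contralaterally. With it as a covariate the smallest limma adjusted p of a member for hemisphere was 0.873. In that fit 2 members were lower at an unadjusted p under 0.05. Without the 2 arrays of highest GAPDH ratio these values were 0.282 and 5. Leaving out the non-deprived layer 6 gave the members a median of -0.05, leaving out the deprived layer 5 gave -0.08, and leaving out the non-deprived layer 4 gave -0.21. Cell type markers differed between the sides as well: oligodendrocyte markers were higher ipsilaterally in 10 of 12 tested (median change 0.13, 4 at an unadjusted p under 0.05), microglia markers in 5 of 5 (0.35, 1), and endothelial and mural markers in 7 of 10 (0.15, 1). Neuron markers were lower ipsilaterally in 11 of 14 (-0.07, 2 at that p) and astrocyte markers in 6 of 10 (-0.09, 1 lower and 1 higher), with 0 called by limma in any of the 5 lists. Of all 7285 genes tested 6.82% were lower and 12.92% higher at that p. The part of these differences in the members' hemisphere changes was not tested.

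**Figure D3:**
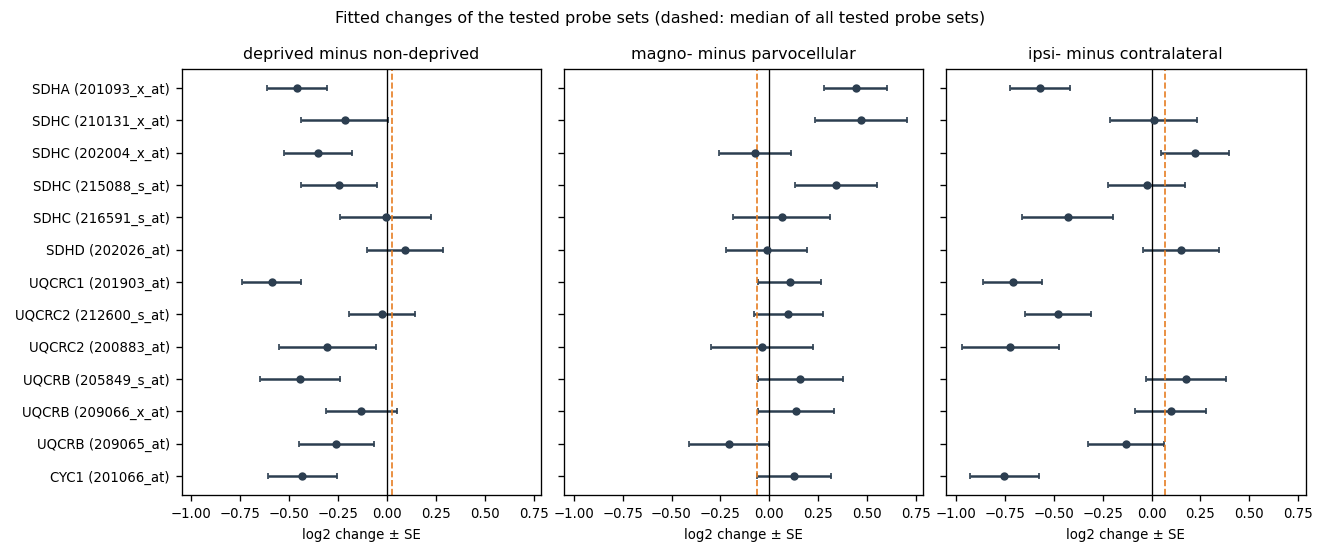
Fitted log2 changes with their standard errors for the 13 tested probe sets in the 3 comparisons, with the median of all tested probe sets as a dashed line (0.03, -0.07 and 0.07). UQCRC1, CYC1, SDHA and UQCRC2 lie lowest in the comparison of hemispheres, and no probe set was called in any panel.

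Magnocellular and parvocellular layers, whose large and small relay cells carry different visual signals, did not differ in any member past the threshold. SDHA came closest, with 9840 ± 2702 in magnocellular (SD, n = 4) and 7316 ± 2085 in parvocellular layers (n = 8), a change of 0.44 ± 0.16 (limma adjusted p = 0.229). SDHC had 0.47 ± 0.24 on 210131_x_at, where the non-deprived layer 1 alone read 14235, and 0.34 ± 0.21 on 215088_s_at. The other 10 lay between -0.21 and 0.16. Of the 13, 9 were positive, with a median of 0.10 against -0.07 over all tested probe sets, of which 58.5% were below 0 and 0.720% were called. At an unadjusted p under 0.05, 1 member (SDHA) was higher in magnocellular layers and 0 lower, against 5.24% and 9.35% of all tested probe sets. The cell classes overlapped for each of the 13, where 0.946% of all tested probe sets had every magnocellular array lower and 0.558% every one higher. The median turned to -0.11 with the ACTB 3'/5' ratio as a covariate, a ratio of 29.8 to 62.9 in magnocellular and 17.0 to 43.9 in parvocellular samples, and to -0.11 in non-deprived samples alone.

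Whether deprivation acted alike in both cell classes and both hemispheres was tested with interaction terms. For cell class the members ran from -0.58 to 0.96, with the highest value for UQCRC2 on 200883_at (0.96 ± 0.47, limma adjusted p = 0.602). For hemisphere they ran from -1.29 to 0.54. SDHC had the lowest values, -1.29 ± 0.32 on 210131_x_at (adjusted p = 0.508, unadjusted 0.000954) and -0.91 ± 0.33 on 215088_s_at (adjusted p = 0.595). On 210131_x_at the ipsilateral samples read 5165, 4786 and 5303 in the deprived layers 2, 3 and 5 and 14235, 7945 and 6982 in the non-deprived layers 1, 4 and 6. Contralaterally they read 9156, 8680 and 6168 with deprivation in layers 1, 4 and 6 and 7660, 4776 and 5517 without it in layers 2, 3 and 5. On both sides the mean of layers 1, 4 and 6 was above that of layers 2, 3 and 5, although contralaterally layer 6 (6168) read less than layer 2 (7660). This term is the same contrast as the eye that feeds a layer, the crossed eye for layers 1, 4 and 6 and the uncrossed eye for layers 2, 3 and 5, and the design cannot tell them apart. No probe set of any gene was called for either interaction (0% of 11105), while 8.73% and 6.57% had an unadjusted p under 0.05, as had 0 and 2 of the 13 members, both SDHC.

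Correlations between member probe sets over the 12 arrays are given as a description, and all share the arrays' scaling. UQCRC1 and CYC1 had r = 0.91, and SDHA had 0.78 with each of them. After removal of the fitted deprivation, class and hemisphere effects these were 0.66 for UQCRC1 with CYC1, and 0.15 and 0.30 for SDHA with UQCRC1 and CYC1. The SDHC probe sets 210131_x_at and 215088_s_at had r = 0.87 before and 0.83 after that removal, and the 2 UQCRC2 probe sets 0.69 and 0.48. Pairs of different complexes could be as close: SDHC on 210131_x_at with UQCRC1 had 0.48 before and 0.84 after, and SDHC on 216591_s_at with UQCRC2 on 200883_at 0.78 and 0.67. SDHD had r = -0.51 with UQCRC1, the lowest of the 78 pairs.

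The mean of the 7 member genes (1 probe set each, as centred log2 intensity) moved with the median intensity of the array. It was -0.31, -0.50 and -0.37 in the ipsilateral deprived layers 2, 3 and 5 and -0.25 in the ipsilateral non-deprived layer 4, and between -0.07 and 0.33 on the other 8 arrays. Those 4 arrays had the highest median intensities, 598.7 to 666.5 against 411.5 to 529.1, and over 12 arrays the correlation was -0.89. By probe set it ran from -0.88 for CYC1 to 0.32 for UQCRB on 209066_x_at. SDHA had -0.86 and UQCRC1 -0.82, but SDHD had 0.22 and SDHC on 202004_x_at 0.13. Such correlations are not given here for all tested probe sets. The members' mean had a correlation of -0.48 with the log2 GAPDH ratio and of 0.08 with the log2 ACTB 3'/5' ratio. Leaving out the 2 arrays of highest GAPDH ratio gave a median deprivation change of -0.23, with UQCRC1 at -0.48 and SDHA at -0.31.

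Markers of cell types moved with the members as well. The summed intensity of 15 neuron markers ran from 512740 to 635160 in deprived and from 636581 to 749681 in non-deprived samples without overlap, and 14 of the 14 that were tested had a negative change with deprivation (median -0.26, 0 called). SNAP25 (-0.04 ± 0.10) and SLC17A6 (-0.16 ± 0.13) had smaller changes than this median. The sum includes the bright neurofilament genes NEFM (mean 51824 in deprived, 73778 in non-deprived samples) and NEFH (55757 and 70329). Oligodendrocyte markers were positive with deprivation in 12 of 12 tested (median 0.38), astrocyte markers in 10 of 10 (0.30), microglia markers in 5 of 5 (0.20) and endothelial and mural markers in 8 of 10 (0.20), with 0 called in each. At an unadjusted p under 0.05, 4 neuron markers were lower, and 5 oligodendrocyte, 3 astrocyte, 1 microglia and 1 endothelial or mural marker higher, where 6.30% of all 7285 genes tested were lower and 6.09% higher. Summed, they ran from 75591 to 165164 in deprived and 72570 to 118969 in non-deprived samples for oligodendrocytes, and from 117591 to 187242 and 101200 to 154080 for astrocytes. For microglia these ranges were 8457 to 16209 and 7644 to 9970, and for endothelium and mural cells 13279 to 21100 and 11392 to 15174. The correlation of the members' mean with the summed markers was 0.79 for neurons, -0.75 for oligodendrocytes, -0.88 for microglia, -0.78 for endothelium and 0.04 for astrocytes. Defining markers were well measured for each of these lists (GFAP 2079 to 6229, CX3CR1 3410 to 9968, CLDN5 1102 to 3041, PECAM1 679.7 to 1676) except AQP4, which lay below the filter at 100.1 to 927.3. In such samples fewer neurons and less RNA per neuron cannot be told apart, and the part of cell makeup in the members' changes was not tested.

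**Figure D4:**
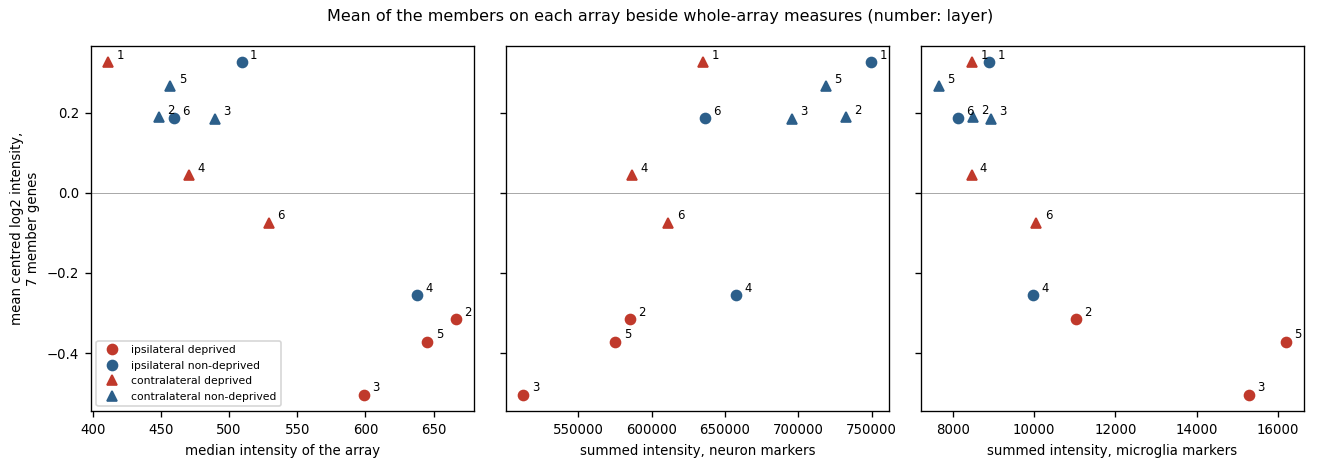
Mean centred log2 intensity of the 7 member genes on each array (1 probe set per gene) against the array's median intensity, the summed intensity of neuron markers and that of microglia markers. Each point is 1 array, with its layer number. The 3 ipsilateral deprived arrays and the ipsilateral non-deprived layer 4 lie lowest, from -0.25 to -0.50.

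The rest of the pathway gave 0 calls with deprivation in limma. At an unadjusted p under 0.05, 6 genes of the 8 pathway lists were lower (UQCRQ, UQCC1, ETFB, SUCLG1, ISCU and ESRRG) and 1 was higher (SUCLG2), of 48 tested. Of all 7285 genes tested 6.30% were lower and 6.09% higher at that p. The genes named here are mainly those of smallest p in each list. The other complex III subunits, UQCRQ (-0.47 ± 0.20), UQCR11 (-0.28 ± 0.17) and UQCR10, were negative in 3 of 3. Of 7 tested assembly factors of the complexes 5 were negative (median -0.18). UQCC1, which is needed to assemble complex III around cytochrome b, had -0.46 ± 0.14 (limma adjusted p = 0.214), read less in the deprived sample in all 6 layers, and went from 10000 ± 1409 to 7251 ± 730 (SD, n = 6 each). Its hemisphere change was 0.01 ± 0.14. HIGD2A, a supercomplex assembly factor, had -0.32 ± 0.20. Genes of iron-sulfur cluster assembly, which supply the clusters of both complexes, were negative in 6 of 6 (median -0.27), with the scaffold protein ISCU at -0.32 ± 0.15 and the glutaredoxin GLRX5 at -0.61 ± 0.35.

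Lists on either side of the complexes lay near the median of all 7285 genes tested, which was 0.02. Cytochrome c (CYCS, -0.03 ± 0.16) and its haem lyase HCCS (-0.08 ± 0.17) were in the same range. Ubiquinone synthesis genes had a median of -0.04 (7 of 9 negative, COQ4 0.28 ± 0.35, COQ6 -0.12 ± 0.18). Other enzymes that reduce ubiquinone had 0.13 (2 of 6 negative), with the electron transfer flavoprotein subunit ETFB at -0.48 ± 0.19 and the sulfide oxidase SQOR at 0.38 ± 0.36. Enzymes beside succinate and fumarate in the citric acid cycle had -0.06 (4 of 6 negative). Among these the succinyl-CoA ligase subunits differed in sign: the GTP-type subunit SUCLG2 had 0.65 ± 0.22 (adjusted p = 0.264) and the shared subunit SUCLG1 -0.28 ± 0.11 (adjusted p = 0.330). Regulators of mitochondrial genes had 0.02 (4 of 9 negative), with the orphan receptors ESRRG at -0.56 ± 0.20 and ESRRA at -0.38 ± 0.20.

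Outside the comparison of deprivation, 2 genes of these lists were called. COQ10B, a mitochondrial ubiquinone-binding protein, was higher in magnocellular layers, with 5834 ± 697 (SD, n = 4) against 3344 ± 525 (n = 8), a change of 0.81 ± 0.16 (limma adjusted p = 0.0233). ISCU was higher there too, with 6989 ± 1658 against 4264 ± 876 (0.70 ± 0.16, adjusted p = 0.0490). COQ10B was called in 6 of 12 fits that left out 1 array and in 7 of 12 other settings, and ISCU in 1 and 3. In both, changes stayed positive (0.66 to 0.90 and 0.59 to 0.83), with adjusted p up to 1.00 and 0.976. Markers differed between the cell classes too. Oligodendrocyte markers were negative in 8 of 12 tested (median -0.48), with 7 lower at an unadjusted p under 0.05 (8.94% of all genes tested), and the myelin genes MBP (-0.64 ± 0.13, adjusted p = 0.0334) and MAG (-1.26 ± 0.23, adjusted p = 0.0180) were called as lower in magnocellular layers. Their summed intensity ran from 72570 to 106790 in magnocellular and from 96720 to 165164 in parvocellular samples. Of the astrocyte markers, 4 of 10 negative (median 0.05), AGT was called as lower (-1.07 ± 0.18, adjusted p = 0.00895). Of the neuron markers, 6 of 14 negative (median 0.0032), the neurofilament gene NEFM was called as higher (0.83 ± 0.12, adjusted p = 0.00295). Microglia markers were negative in 4 of 5 (median -0.18) and endothelial and mural markers in 7 of 10 (-0.18), with 0 called. The part of cell makeup in the calls of COQ10B and ISCU was not tested. MAG, AGT, NEFM and NEFH were named after their values were seen.

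Complexes II and III stood beside the listed subunits of complexes I, IV and V as follows, with 1 probe set per gene. The 7 members had a median deprivation change of -0.43, with 6 of 7 negative. Complex I had -0.24 (24 of 28 negative), complex IV -0.21 (9 of 10) and complex V -0.30 (13 of 14), where 46.9% of all genes tested were negative. With hemisphere the medians were -0.48 for the members, -0.22 for complex I, -0.31 for complex IV and -0.22 for complex V, against 0.06 for all genes tested. The members' hemisphere median depends on the choice of probe set: over all 13 tested probe sets it was -0.13, nearer 0 than in the other 3 complexes, and their deprivation median was -0.26. The 1 subunit called in these complexes was ATP5PB, of the stalk of ATP synthase, which read 11795 ± 3434 ipsilaterally and 24102 ± 5137 contralaterally (SD, n = 6 each; -1.06 ± 0.18, limma adjusted p = 0.0493). It was called in 2 of 12 fits that left out 1 array and in 5 of 11 other settings. Differences between the complexes were not tested.

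**Figure D5:**
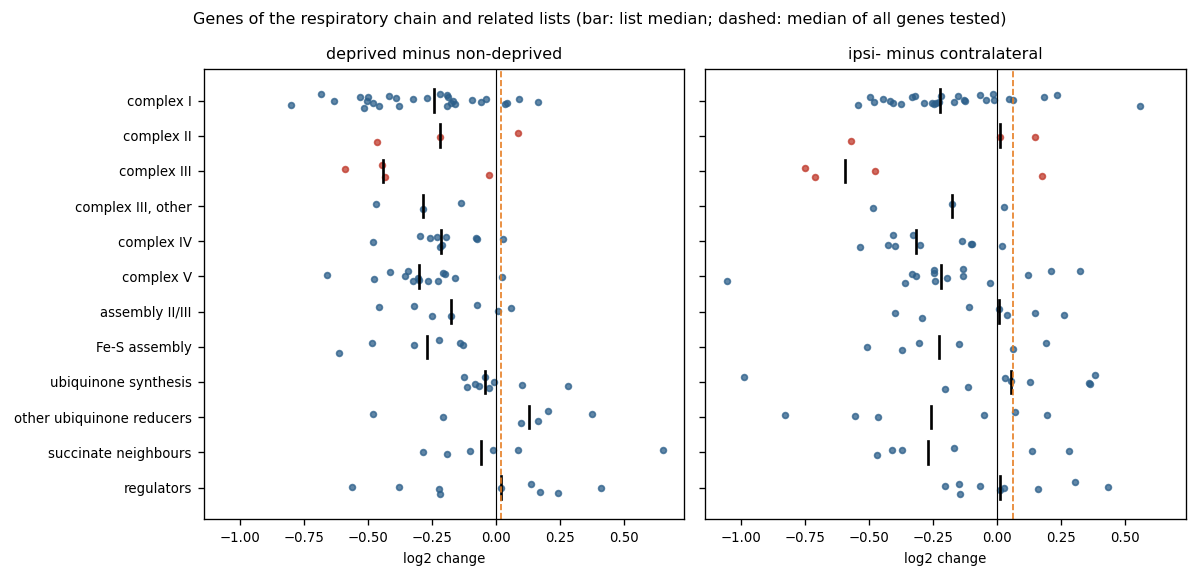
Log2 changes with deprivation and with hemisphere of the tested genes of each list, 1 point per gene (vertical spread only separates points), with list medians as bars and the median of all 7285 genes as a dashed line. Members are red. The medians of complexes I, IV and V lie between -0.21 and -0.31 in both panels.

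Among 9830 single-gene probe sets outside the members, those whose pattern over the 12 arrays was most like the members' mean were of DUSP12 (r = 0.95), CCDC28A (0.94), SYNCRIP (0.94), PSMD12 (0.93), a proteasome subunit, and MED8 (0.93), a subunit of the Mediator complex. Their deprivation changes ran from -1.01 ± 0.33 for MED8 to -0.36 ± 0.18 for PSMD12, and their hemisphere changes from -1.07 ± 0.25 for SYNCRIP to -0.47 ± 0.18 for PSMD12, and none was called in either.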

How the data were processed

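Total RNA of single geniculate layers was measured on a human Affymetrix expression array, which the macaque RNA was hybridised to. The deposited table holds 1 intensity per probe set and array, linear and positive, for 22283 probe sets. How the authors computed it is not given in the sources used here. Trimmed means (2%) lay between 1500.45 and 1500.6, so the deposited intensities had been scaled and were used as they were. Genes were named from the platform annotation (19065 probe sets with 1 gene, 1043 with several, 2107 with none here, 68 controls), and all 10 member symbols were found among macaque genes. Coordinates are left out for want of a named build.

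A floor at the 20th percentile of all values (110.8) was set before log2. Probe sets with a mean at or above the median over all were tested (11105). The test was limma's (version 3.58.1, R 4.3.3) moderated two-sided test with an intensity trend, adjusted by Benjamini-Hochberg over all of them. The fit left 8 residual degrees of freedom, and 7 with an interaction. It was tested on simulated data with planted deprivation changes larger than that of any member. Its power for changes of the members' size was not tested. The number of arrays limits the precision.

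Named were all members, the 2 genes of smallest deprivation p in each pathway list, pathway and complex I, IV and V genes past the threshold in any comparison, defining markers and the 5 genes of most similar pattern. Members and lists were chosen with earlier results of these data known, so no test was made on a list. Lists used the probe set of highest mean per gene. Alternatives were the normalization, floor, filter, trend, covariates, layer as a block and leaving out arrays.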

Additional observations from a re-analysis of the deposited data

Results flagged for a closer look

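Values far from the rest of their group were looked for in 78 groups of 4 to 8 samples on the log2 scale, by the gap to the nearest sample as a share of the group's range. There were 6, where chance gives about 3.9. CYC1 was low in the non-deprived layer 4, at 4664 against 8114 to 10739 in the other non-deprived samples (gap share 0.664). SDHC on 202004_x_at was high in layer 4 on both sides, at 3824 against 2937 to 3231 among deprived samples (0.638) and at 6392 in the non-deprived sample against 3075 to 3824 among parvocellular samples (0.702). On 215088_s_at SDHC was low in the contralateral non-deprived layer 3, at 1438 against 2126 to 2502 (0.706). UQCRB was high in that same sample on 209065_at, at 3863 against 1880 to 2307 (0.716), and in the deprived layer 2 on 209066_x_at, at 8090 against 4253 to 5380 (0.634).

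CYC1 was flagged because its deprived sample was lower in each of layers 2, 3 and 5 and higher in each of layers 1, 4 and 6. The interaction of deprivation with hemisphere was -0.47 ± 0.34 (limma adjusted p = 0.868).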

How the results depend on the processing

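No member was called for deprivation, cell class or either interaction under any alternative run. For hemisphere 0 were called in every setting other than leaving out single arrays, where 0 to 3 were. The members' median deprivation change ran from -0.25 to -0.40 over the normalizations, floors, filters and models, was -0.23 when the 2 arrays with the highest GAPDH ratio were left out, -0.30 in parvocellular layers alone and -0.33 to -0.18 without single arrays. The hemisphere median was -0.45 after median centring and -0.21 to -0.05 without single arrays. After median centring the hemisphere changes of SDHC (202004_x_at -0.10, 210131_x_at -0.31), SDHD (-0.17) and UQCRB (205849_s_at -0.14, 209066_x_at -0.22) turned negative, as did SDHD with deprivation (-0.0479). With quantile normalization SDHD had -0.0689 with hemisphere and UQCRC2 (212600_s_at) 0.0248 with deprivation. Without the 2 arrays of highest GAPDH ratio, signs turned for SDHC with deprivation (210131_x_at 0.0466, 216591_s_at 0.0759) and hemisphere (215088_s_at 0.0635), SDHD with deprivation (-0.0462) and UQCRB with hemisphere (209066_x_at -0.14). With that ratio as a covariate they turned for SDHC (216591_s_at 0.0499) and UQCRC2 (212600_s_at 0.0051) with deprivation and UQCRB (209066_x_at -0.10) with hemisphere, and in parvocellular layers alone for SDHD with deprivation (-0.12). Without single arrays, deprivation changes crossed 0 for SDHC (216591_s_at, -0.10 to 0.11), SDHD (-0.0243 to 0.18) and UQCRC2 (212600_s_at, -0.12 to 0.0702). Hemisphere changes crossed 0 for SDHC (210131_x_at, -0.17 to 0.19; 215088_s_at, -0.16 to 0.0797) and UQCRB (205849_s_at, -0.0153 to 0.28; 209066_x_at, -0.0605 to 0.21; 209065_at, -0.21 to 0.0047). The causes were not tested. Same-numbered layers did not deviate together (r from -0.25 to -0.0016). The samples of a layer came from opposite sides, so these correlations can also hold the difference between sides. They cannot decide whether the layer number pairs the samples. With the layer as a replicate block 0 members were called, the medians were -0.26 with deprivation and -0.13 with hemisphere, and UQCRC1 had an adjusted p of 0.0765 with hemisphere. The interaction with hemisphere could not be fitted with that block, because it is a contrast of layers.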
